A study of Rattus norvegicus with 24 samples.

Results

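The aquaporins analysed here were the water and glycerol channels Aqp1, Aqp2, Aqp3, Aqp4, Aqp6, Aqp7 and Aqp11. These 7 genes were chosen by name as the members of the family known from the kidney, and all 7 were found among the 17334 genes of the expression tables and passed the filter on low counts that left 12778 genes for testing. Expression came from RNA sequencing of left kidneys from 24 male PKD/Mhm (Cy/+) rats, which are heterozygous for a missense mutation of Anks6 and develop renal cysts. The animals were 8 months old and were studied as 4 groups of 6. The Ctrl group was untreated, the CoCM group received supernatant from a co-culture of human skin-derived ABCB5+ stromal cells with stimulated THP-1 macrophages, and the remaining groups were injected with the ABCB5+ cells, either into the peritoneum (i.p. ABCB5+) or into a vein (i.v. ABCB5+). Treatments were given monthly for 6 months.

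By their labels all groups carried the Cy/+ genotype, and no group was labelled as non-cystic. Cystic animals had been recognised by palpation of the abdomen. The sources used here give the route of the medium as intraperitoneal in one place and as intravenous in another. The kidney was frozen before perfusion and therefore contained blood. The untreated animals were numbered between 1 and 24 and the treated ones between 26 and 43, so the order of the animals and the treatment cannot be told apart in any comparison with Ctrl. The 3 comparisons with Ctrl also share the same 6 control kidneys.

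Aquaporins are membrane channels through which water, and for some members glycerol, crosses cell membranes. In the proximal tubule and the thin descending limb, Aqp1 in both membranes carries the bulk of the reabsorbed water, Aqp7 sits in the brush border of the straight segment and also passes glycerol, and Aqp11 lies in intracellular membranes. In the principal cells of the collecting duct, vasopressin acts through its receptor Avpr2 and cyclic AMP to bring Aqp2 to the luminal membrane and to raise its transcription, while Aqp3 and Aqp4 form the exit on the opposite membrane. Aqp6 is found in vesicles of the acid-secreting intercalated cells. Vasopressin and cyclic AMP are of interest in cystic kidneys because they promote the secretion and proliferation of cyst epithelium.

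The regions at the start of transcription of the main channel of each segment, and of the channel most like Aqp2 across animals, are shown because they are where the cyclic AMP route and the basal transcription machinery would act. Each run covers 250 bases before to 50 bases after the start site, 5′ to 3′ on the strand of the gene, from RefSeq on the assembly GRCr8. The expression files were made on rn6, and no measurement of binding or methylation was made at these regions. Capitals mark 3 motifs. GACGTCA is the core of the cAMP response element. AGATAA is a site bound by Gata factors. TATAA is the element of the basal promoter. Each motif was searched on both strands, and no marked stretch overlaps another.
Aqp2 (chr7:132590036-132590335, plus strand): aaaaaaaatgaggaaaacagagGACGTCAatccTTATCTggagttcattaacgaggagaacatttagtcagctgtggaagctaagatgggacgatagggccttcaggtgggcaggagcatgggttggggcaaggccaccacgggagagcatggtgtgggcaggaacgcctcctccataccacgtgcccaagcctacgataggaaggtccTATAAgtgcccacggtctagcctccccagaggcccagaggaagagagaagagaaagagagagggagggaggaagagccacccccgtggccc
Aqp3 (chr5:61040634-61040933, minus strand): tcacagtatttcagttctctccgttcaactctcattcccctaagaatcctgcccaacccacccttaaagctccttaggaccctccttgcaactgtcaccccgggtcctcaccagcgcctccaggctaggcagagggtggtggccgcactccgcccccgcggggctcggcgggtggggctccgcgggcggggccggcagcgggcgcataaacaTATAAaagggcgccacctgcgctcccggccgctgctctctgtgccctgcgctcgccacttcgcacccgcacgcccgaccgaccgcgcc
Aqp1 (chr4:85812534-85812833, plus strand): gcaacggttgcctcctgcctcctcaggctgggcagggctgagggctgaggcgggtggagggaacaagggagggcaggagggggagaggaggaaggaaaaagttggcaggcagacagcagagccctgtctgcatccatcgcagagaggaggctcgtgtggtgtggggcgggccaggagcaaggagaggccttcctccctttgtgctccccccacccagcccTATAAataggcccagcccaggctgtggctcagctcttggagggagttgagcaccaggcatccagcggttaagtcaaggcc

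Counted from the start site, the window of Aqp2 held GACGTCA at -228 and AGATAA at -217, the latter on the reverse strand and so read as TTATCT. The letters TATAA began at -41 in Aqp2, at -38 in Aqp3 and at -30 in Aqp1. Of all 33469 windows of this length in the table, 3.22% held GACGTCA, 11.6% held AGATAA and 26.2% held TATAA. Windows were found for 6 of the 7 genes, Aqp4 having 2. TATAA began at -77 in 1 window of Aqp4, and no other match to these motifs was found in the windows of Aqp4, Aqp6 and Aqp11. A match is a description of letters and was not tested as a site. In the same assembly Aqp2, Aqp5 and Aqp6 lie next to one another on chromosome 7, and Aqp7 and Aqp3 are neighbours on chromosome 5.

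Before the comparisons, 4 libraries have to be named. On the first principal component of all tested genes, which held 56.3% of the variance, CoCM 39, i.p. ABCB5+ 38, i.v. ABCB5+ 36 and i.v. ABCB5+ 37 had scores from 80.8 to 97.4, whereas the other 20 animals ranged from -53.0 to 11.5. Spp1 (osteopontin, made by injured tubules) was at 326 to 566 TPM in the 4 and at 6142 to 13258 TPM in the 20, TPM being a level scaled to transcript length and to the library total. The summed level of 4 macrophage markers was 12.02 to 35.1 TPM against 99.5 to 231 TPM. The summed level of 10 proximal tubule markers was 3889 to 5652 TPM in the 4 and 964 to 4061 TPM in the 20. The 4 are the consecutively numbered animals 36 to 39, spread over the 3 treated groups, and none was a control. The labels give all 4 as Cy/+, a status that had rested on palpation and was not tested in these data, nor was the part of their place in the order of the animals. The aquaporin differences from Ctrl are given with and without them, and correlations over the other 20 animals alone. Total counts ranged from 9304630 to 14125457 per library.

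Across all 24 kidneys Aqp1 was the most abundant aquaporin on the TPM scale, at 493 ± 272 TPM (SD, n = 24), and Aqp2 came next at 441 ± 141 TPM. Aqp6 (155 ± 48.8), Aqp3 (118 ± 27.2), Aqp7 (77.5 ± 31.1), Aqp11 (24.8 ± 11.97) and Aqp4 (11.4 ± 3.87 TPM) followed. The order of Aqp1 and Aqp2 did not hold without the 4 animals that stand apart, where Aqp1 was at 412 ± 165 and Aqp2 at 432 ± 136 TPM (SD, n = 20). Nor did it hold from animal to animal. Aqp1 exceeded Aqp2 in 13 of 24 animals, and the ratio of Aqp1 to Aqp2 ran from 0.277 to 4.71. Aqp2 exceeded Aqp6 in 24 of 24 animals and Aqp7 exceeded Aqp11 in 24 of 24, so these steps of the order held within every kidney. Between kidneys the levels still overlapped, the lowest Aqp2 being 255 TPM and the highest Aqp6 259 TPM. Aqp6 and Aqp3 were closer, with Aqp6 higher in 20 of 24 and a median ratio of 1.33. Aqp3 exceeded Aqp7 in 21 of 24, the exceptions being Ctrl 24 and i.v. ABCB5+ 36 and 37. Aqp11 exceeded Aqp4 in 20 of 24, the exceptions being CoCM 27, Ctrl 12, Ctrl 23 and i.p. ABCB5+ 30.

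Together Aqp1 and Aqp2 made up most of the aquaporin message of the kidney. Aqp1 contributed 36.01% ± 12.6 and Aqp2 34.3% ± 10.1 of the summed TPM of the 7 genes (SD, n = 24), with extremes of 14.1% and 63.9% for Aqp1 and of 13.6% and 51.0% for Aqp2. Aqp4, the second exit channel of the principal cell, contributed 0.915% ± 0.346. Because the tissue was a whole kidney, fewer cells of a type and less RNA per cell cannot be told apart in any of these levels.

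**Figure D1:**
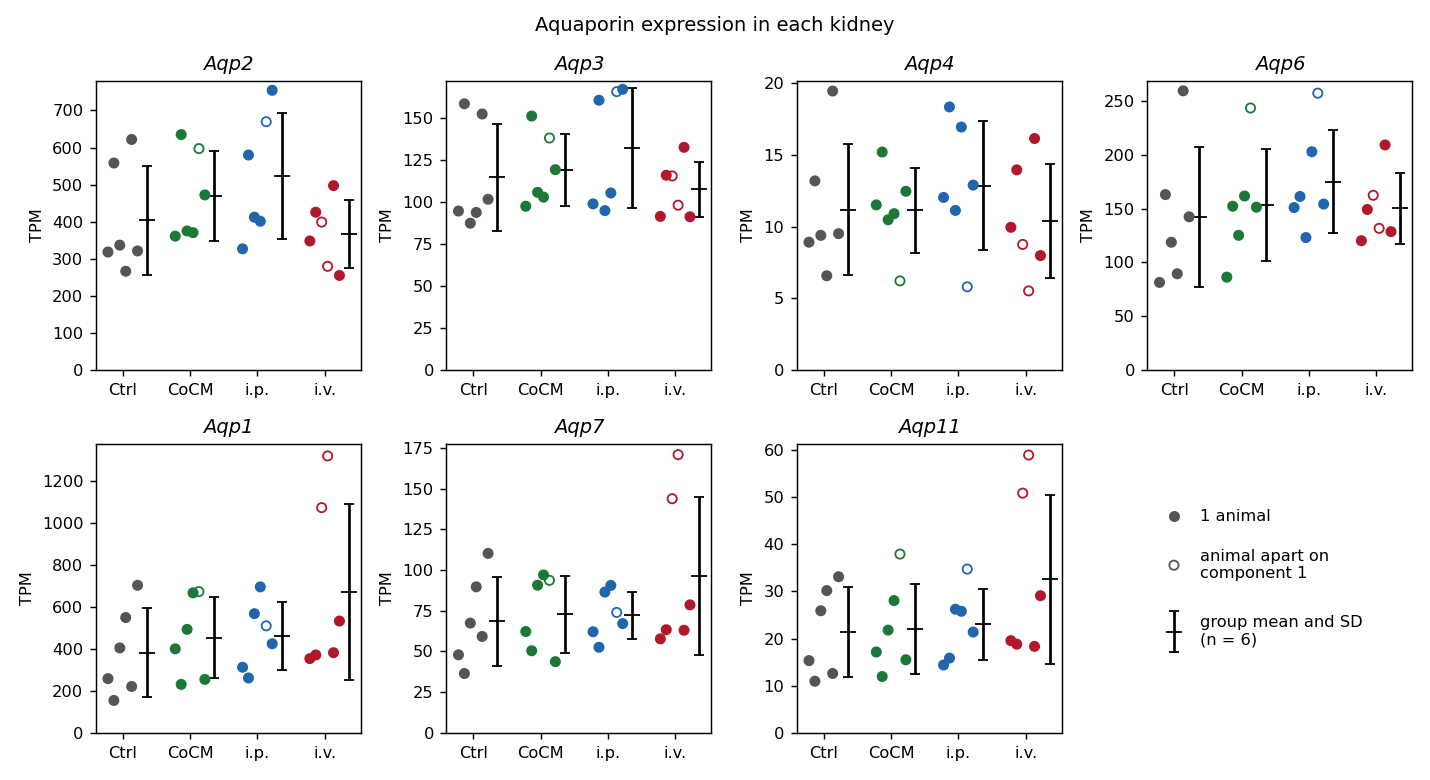
Level of each aquaporin (y axis, TPM, from 0) in each of the 24 kidneys by group (x axis: Ctrl, CoCM, i.p. ABCB5+, i.v. ABCB5+). Points are animals, open points are the 4 animals that stand apart on the first principal component, and bars give the group mean and SD (n = 6). The groups overlap for every gene, and the 2 open i.v. ABCB5+ points lie above all others for Aqp1, Aqp7 and Aqp11.

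Aqp2 and its partners in the principal cell were compared between groups first, since cyclic AMP signalling acts on them. Aqp2 had its lowest, median and highest level at 267, 329 and 622 TPM in Ctrl, at 361, 424 and 635 TPM in CoCM, at 327, 496 and 754 TPM in i.p. ABCB5+, and at 255, 374 and 497 TPM in i.v. ABCB5+ (n = 6 each). The highest single kidney was i.p. ABCB5+ 41 and the lowest i.v. ABCB5+ 43, but every group overlapped every other. Untreated kidneys averaged 404 ± 147 TPM and CoCM kidneys 469 ± 122 TPM, against 524 ± 169 TPM after i.p. and 368 ± 91.5 TPM after i.v. cells (SD, n = 6). The edgeR log2 fold change of Aqp2 against Ctrl was 0.35 ± 0.24 (SE) for CoCM (adjusted p = 0.526), 0.50 ± 0.24 for i.p. cells (adjusted p = 0.978) and -0.04 ± 0.24 for i.v. cells (adjusted p = 0.959). None of these passed the threshold of 0.05. Without the 4 animals that stand apart they were 0.23, 0.36 and -0.10. The 95% interval of the i.p. ABCB5+ difference ran from -0.01 to 1.002 on the log2 scale.

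Between the cell routes, Aqp2 was at a log2 difference of 0.53 ± 0.24, higher after i.p. cells, with an unadjusted edgeR p of 0.0396 and an adjusted p of 0.9999. Of the 6 i.p. kidneys, 5 lay above the i.v. mean and 3 above the highest i.v. kidney. The two-sided exact permutation test on log2 CPM (counts relative to the size of the library) gave p = 0.141. Without the 4 animals that stand apart the log2 difference was 0.46. When single animals were left out it lay lowest at 0.37, without i.p. ABCB5+ 41.

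Aqp3, which passes glycerol as well as water, ranged from 87.3 to 158 TPM in Ctrl, from 97.4 to 151 TPM in CoCM, from 94.8 to 167 TPM in i.p. ABCB5+ and from 91.1 to 132 TPM in i.v. ABCB5+. All groups overlapped, and the log2 fold changes against Ctrl were 0.18, 0.31 and 0.01 (SE 0.19 each) for CoCM, i.p. and i.v. ABCB5+, or 0.10, 0.18 and -0.11 without the 4 animals. Aqp4 ranged from 6.58 to 19.4 TPM in Ctrl, from 6.22 to 15.2 TPM in CoCM, from 5.81 to 18.3 TPM in i.p. ABCB5+ and from 5.52 to 16.1 TPM in i.v. ABCB5+. The lowest Aqp4 kidney of each treated group was one of the 4 that stand apart. Its log2 fold changes were 0.11, 0.27 and -0.04 (SE 0.24 each), or 0.21, 0.40 and 0.08 without the 4 animals. No test of Aqp3 or Aqp4 passed, the smallest adjusted p being 0.643.

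Aqp6 averaged 142 ± 65.1 TPM in Ctrl and 153 ± 51.9 TPM in CoCM kidneys, with 175 ± 47.8 TPM after i.p. and 150 ± 32.6 TPM after i.v. cells (SD, n = 6). Its Ctrl range, 81.5 to 259 TPM with a median of 131, held the lowest and the highest kidney of all 24. The log2 fold changes of Aqp6 against Ctrl were 0.26, 0.42 and 0.19 (SE 0.26 each), and none passed. Without the 4 animals they were 0.03, 0.21 and 0.08. Leaving out single animals moved the CoCM value between 0.04 and 0.45, the former without CoCM 39.

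The aquaporins of the proximal tubule had their highest group means in i.v. ABCB5+. The lowest, median and highest Aqp1 level was 155, 332 and 704 TPM in Ctrl, 231, 447 and 673 TPM in CoCM, 262, 468 and 696 TPM in i.p. ABCB5+, and 354, 458 and 1320 TPM in i.v. ABCB5+. Animals 36 and 37 of the i.v. ABCB5+ group, at 1074 and 1320 TPM, were above all other kidneys, and the remaining 4 of that group lay between 354 and 533 TPM, inside the Ctrl range. The group mean was 672 ± 418 TPM in i.v. ABCB5+ and 382 ± 212 TPM in Ctrl (SD, n = 6). Without animals 36 and 37 the i.v. mean was 410 ± 82.7 TPM (SD, n = 4).

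The log2 fold change of Aqp1 in i.v. ABCB5+ against Ctrl was 0.99 ± 0.46 (95% interval 0.05 to 1.94) with an unadjusted edgeR p of 0.0406. It did not pass after adjustment (adjusted p = 0.673), and the two-sided exact permutation test gave p = 0.147. Without the 4 animals that stand apart it was 0.05. Leaving out animal 37 alone brought it to 0.56, and leaving out animal 36 alone to 0.79. In CoCM and i.p. ABCB5+ the log2 fold change of Aqp1 was 0.35 in each, with an SE of 0.45, or 0.15 and 0.27 without the 4 animals.

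Aqp7 and Aqp11 had the same shape. Aqp7 was at 68.5 ± 27.3 TPM in Ctrl and 96.2 ± 48.6 TPM in i.v. ABCB5+ (SD, n = 6), the latter containing 144 and 171 TPM in animals 36 and 37 and 57.8 to 78.6 TPM in the other 4. Aqp11 was at 21.3 ± 9.57 TPM in Ctrl and 32.6 ± 17.9 TPM in i.v. ABCB5+, with 50.8 and 58.9 TPM in animals 36 and 37. The log2 fold changes were 0.66 ± 0.34 for Aqp7 and 0.77 ± 0.41 for Aqp11 (SE), both with an adjusted p of 0.673. They became -0.10 and -0.04 without the 4 animals. For CoCM and i.p. ABCB5+ they were 0.20 and 0.15 for Aqp7 and 0.15 and 0.20 for Aqp11, and without the 4 animals they were 0.07 and 0.09 for Aqp7 and -0.13 and -0.02 for Aqp11.

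**Figure D2:**
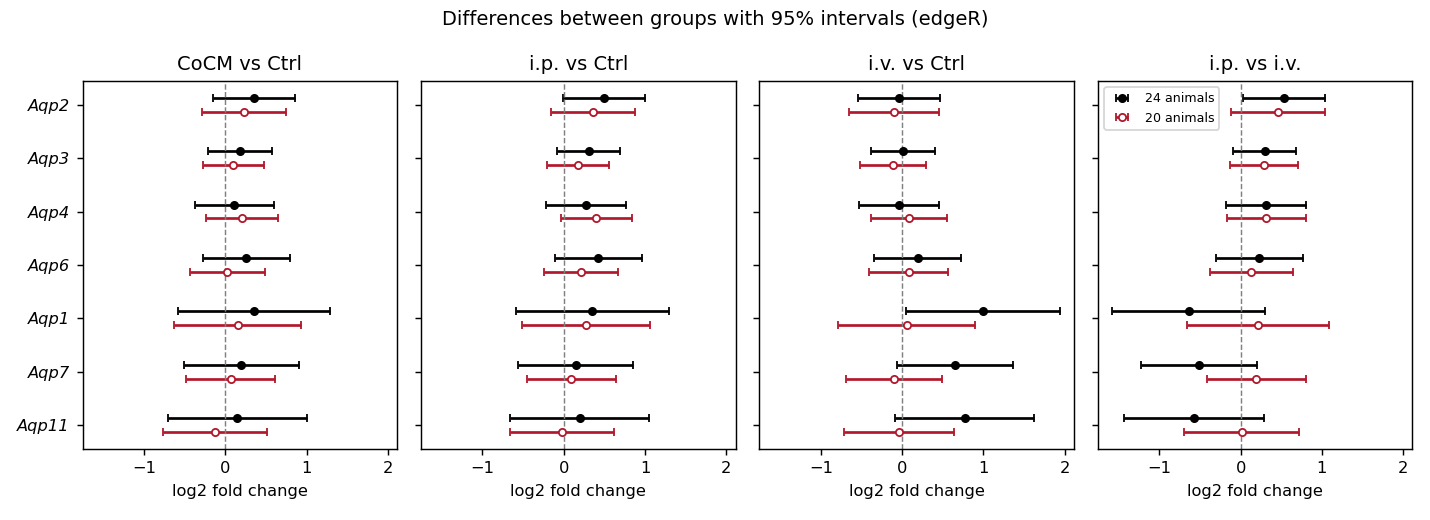
Log2 fold change (x axis) of each aquaporin (y axis) in 4 comparisons, with 95% intervals from edgeR, for all 24 animals (black, filled) and for the 20 animals without those that stand apart (red, open). The i.v. ABCB5+ differences of Aqp1, Aqp7 and Aqp11 lie at 0.99, 0.66 and 0.77 with 24 animals and at 0.05, -0.10 and -0.04 with 20.

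Counted over the family, 0 of 7 aquaporins were called in any comparison at an adjusted p under 0.05. The share of all 12778 genes called was 0.00783% for CoCM against Ctrl (1 gene, Ovca2) and 0% for i.p. against Ctrl, for i.v. against Ctrl and for i.p. against i.v. ABCB5+. At an unadjusted p under 0.05, 2 of the 28 aquaporin comparisons passed in edgeR, Aqp1 in i.v. against Ctrl, where 5.78% of all genes did (4.44% higher), and Aqp2 in i.p. against i.v., where 2.14% did (0.689% higher). None of the 7 did in CoCM against Ctrl, where 11.9% of all genes had such a p, or in i.p. ABCB5+ against Ctrl, where 1.77% had. The 2 groups of a comparison were never fully separated for an aquaporin. The share of all genes with no overlap was 1.38% for CoCM against Ctrl and 0.047%, 0.11% and 0.0626% for the other 3 comparisons. The F-test over the 4 groups gave its smallest p for Aqp2, 0.1005 unadjusted and 0.817 adjusted, and called 0% of all genes. DESeq2 also called 0 of the 7 in every comparison.

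The balance between the collecting duct and proximal channels was compared as the ratio of Aqp2 to Aqp1 in each kidney. The lowest ratio was 0.212, in i.v. ABCB5+ 37, and the highest 3.61, in Ctrl 12. On the log2 scale the mean ratio was 0.20 ± 1.26 for Ctrl and 0.13 ± 0.87 for CoCM, and for the cells 0.20 ± 0.74 by the i.p. and -0.70 ± 1.04 by the i.v. route (SD, n = 6). The i.v. minus Ctrl difference was -0.90, with an exact permutation p of 0.212 (0.339 adjusted over the 8 ratio comparisons), and -0.33 without the 4 animals. The ratio of Aqp2 to Aqp3, which are channels of the same cell, was far tighter, from 2.80 to 4.52 over the 24 kidneys. Its log2 mean was 1.79 ± 0.19 for Ctrl and 1.96 ± 0.12 for CoCM, and for the cells 1.97 ± 0.17 by the i.p. and 1.75 ± 0.20 by the i.v. route. The largest difference, 0.22 between i.p. and i.v. ABCB5+, had an exact permutation p of 0.0758 (0.242 adjusted), and was 0.16 without the 4 animals. The smallest p this test can give with 6 against 6 is 0.00216.

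The aquaporins varied together from animal to animal, in a proximal set and a collecting duct set. Correlations of log2 CPM were taken over the 20 animals that did not stand apart, for all 21 pairs, with 100000 permutations. Aqp1 and Aqp7 had r = 0.962 and rho = 0.964, Aqp1 and Aqp11 had r = 0.948 and rho = 0.919, and Aqp7 and Aqp11 had r = 0.900 and rho = 0.902. Aqp2 and Aqp3 had r = 0.938 and rho = 0.928. For these 4 pairs p was 1e-05 for both coefficients, the smallest these permutations can give, or 5.25e-05 for r and 4.2e-05 for rho after adjustment over the 21 pairs. Without the 2 animals farthest from the median on the first gene of the pair, r was 0.966, 0.922, 0.858 and 0.884.

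Aqp4 varied with the other channels of the principal cell, with r = 0.786 and rho = 0.874 to Aqp2 (p = 6e-05 and 1e-05, adjusted 0.000252 and 4.2e-05) and r = 0.696 and rho = 0.803 to Aqp3 (p = 0.00075 and 4e-05, adjusted 0.00225 and 0.00014). Aqp6, of the neighbouring intercalated cells, had r = 0.746 and rho = 0.732 to Aqp4 (p = 0.00019 and 0.00032, adjusted 0.000665 and 0.00096). Its r was 0.558 to Aqp2 (rho 0.669, p = 0.011 and 0.00167, adjusted 0.0289 and 0.00438) and 0.509 to Aqp3 (rho 0.653, p = 0.0217 and 0.00236, adjusted 0.0455 and 0.00551). Without the 2 farthest animals r was 0.852 for Aqp2 with Aqp4, 0.722 for Aqp3 with Aqp4, 0.620 for Aqp4 with Aqp6, 0.583 for Aqp2 with Aqp6 and 0.512 for Aqp3 with Aqp6. All 9 pairs within a segment therefore had a positive r with an adjusted p under 0.05.

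Across the segments the 12 values of r were all negative, from -0.515 to -0.105, and 1 passed for both coefficients. This was Aqp4 with Aqp11, at r = -0.515 and rho = -0.565 (p = 0.0202 and 0.0108, adjusted 0.0455 and 0.0206), or r = -0.610 without the 2 farthest animals. Aqp11 also passed by rho and not by r with Aqp2 (r = -0.460, rho = -0.576, p = 0.0402 and 0.00962, adjusted 0.0649 and 0.0202, r = -0.596 without the 2 farthest) and with Aqp3 (r = -0.492, rho = -0.537, p = 0.0278 and 0.0157, adjusted 0.0532 and 0.0275, r = -0.641 without the 2 farthest). When each group was centred on its own mean, 18 of the 21 pairs passed by r, and over the 14 treated animals alone 6 did. In the latter case Aqp4 with Aqp11 had r = -0.344 (adjusted p = 0.472) and the pairs of Aqp6 with Aqp2, Aqp3 and Aqp4 no longer passed. Points of one correlation share the library, its depth and the mix of cells in the kidney piece.

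**Figure D3:**
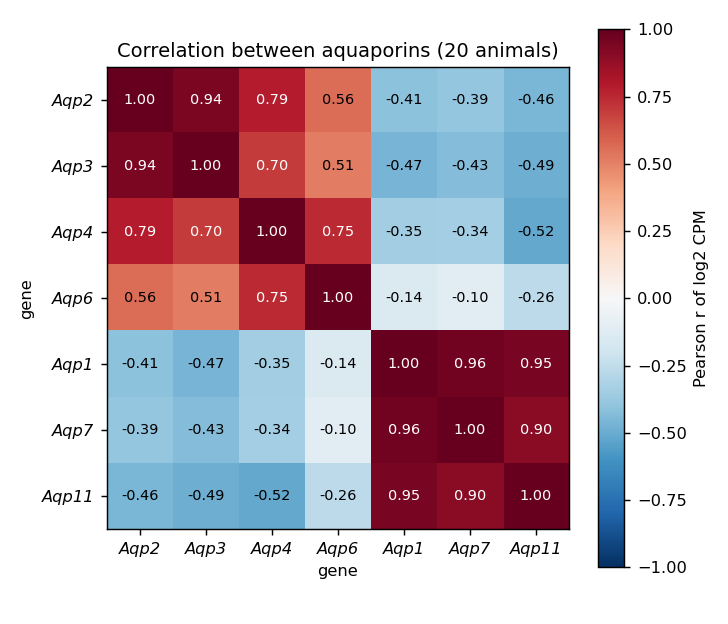
Pearson r of log2 CPM for each pair of aquaporins (both axes: genes, collecting duct first and proximal tubule last) over the 20 animals that did not stand apart, colour running from -1 to 1. The block of Aqp1, Aqp7 and Aqp11 has r of 0.900 to 0.962, the block of Aqp2, Aqp3, Aqp4 and Aqp6 has r of 0.509 to 0.938, and all values between the blocks are negative.

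The neighbours on the chromosome did not pair up in the same way throughout. Aqp2 and Aqp6, with Aqp5 between them, had r = 0.558. Aqp3 and Aqp7 lie side by side, yet Aqp3 varied with Aqp2 and Aqp7 with Aqp1, and their own r was -0.433 (rho -0.424, p = 0.0577 and 0.0639, adjusted 0.0865 and 0.0839) or -0.571 without the 2 farthest animals.

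**Figure D4:**
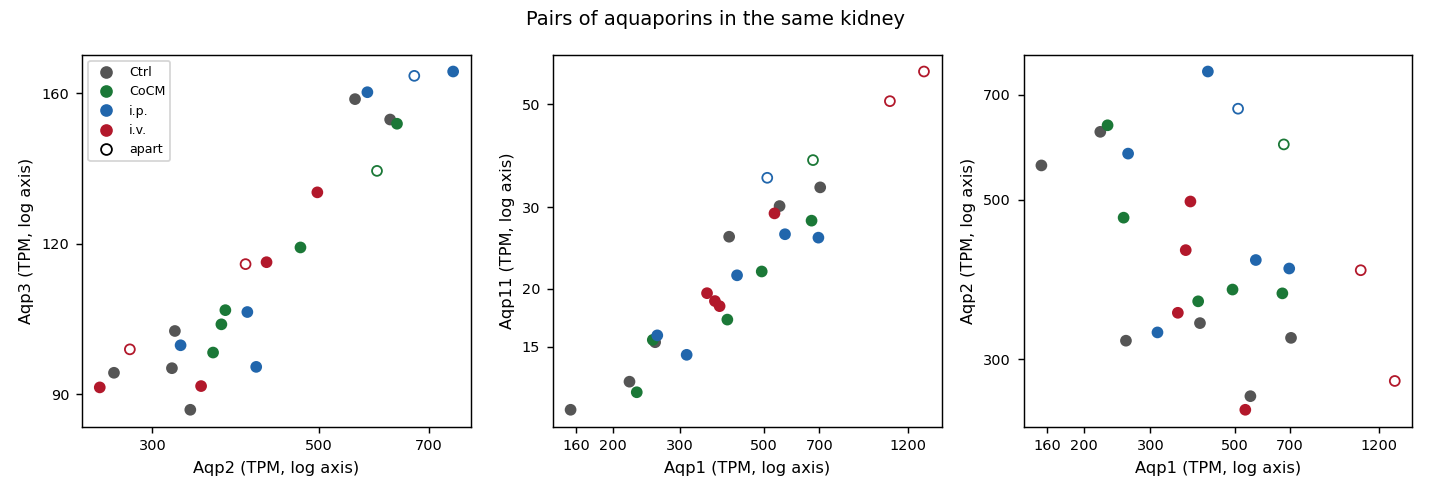
Levels of pairs of aquaporins in each of the 24 kidneys (both axes TPM, log scale), coloured by group, with open points for the 4 animals that stand apart. Aqp3 was higher where Aqp2 was higher and Aqp11 where Aqp1 was higher, while the ratio of Aqp2 to Aqp1 ran from 0.212 to 3.61.

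The markers of the nephron segments, none of which is an aquaporin, were set beside these patterns as the mean log2 CPM of each list. The 8 principal cell markers had r = 0.906 with Aqp2, 0.841 with Aqp3, 0.741 with Aqp4 and 0.717 with Aqp6. Over the 91 relations of 13 lists with 7 genes, the adjusted permutation p of r was 0.00013, 0.00013, 0.00155 and 0.00255. Their rho was 0.892, 0.824, 0.782 and 0.741, and without the 2 farthest animals r was 0.830, 0.715, 0.774 and 0.789. The 8 intercalated cell markers gave r of 0.734 with Aqp2 and 0.706 with Aqp6 (adjusted p = 0.00189 and 0.00296, rho 0.720 and 0.598), or 0.825 and 0.569 without the 2 farthest animals. They also passed with Aqp3 and Aqp4, at r of 0.668 and 0.616 (adjusted p = 0.00527 and 0.016, rho 0.662 and 0.623), or 0.743 and 0.705 without the 2 farthest animals. Differences between these values of r were not tested. The 4 genes taken as markers of the straight proximal segment were Slc5a8, Slc22a7, Slc7a13 and Slc34a3. They did not all move together, Slc34a3 being at a log2 fold change of -0.80 in CoCM against Ctrl, where the list median was 0.91. The mean of these 4 had r = 0.914 with Aqp1, 0.915 with Aqp7 and 0.834 with Aqp11 (adjusted p = 0.00013, 0.00013 and 0.000227, rho 0.889, 0.898 and 0.789), or 0.916, 0.910 and 0.826 without the 2 farthest animals. The 10 markers of the proximal tubule as a whole had r = 0.715, 0.739 and 0.790 with the same genes (adjusted p = 0.00255, 0.00189 and 0.00013, rho 0.738, 0.759 and 0.823), or 0.754, 0.801 and 0.778 without the 2 farthest animals. Lists of other segments passed as well. The 4 markers of the thick ascending limb had r = 0.647 with Aqp1 and 0.695 with Aqp7 (adjusted p = 0.00955 and 0.00399, rho 0.636 and 0.684), or 0.590 and 0.605 without the 2 farthest animals. The proximal tubule list had r = -0.581 with Aqp2 and -0.634 with Aqp4 (adjusted p = 0.0276 and 0.0118, rho -0.558 and -0.520, adjusted 0.0443 and 0.0656), or -0.349 and -0.368 without the 2 farthest animals. Of the 91 relations, 25 had an adjusted p of r under 0.05. The part of cell composition in the aquaporin levels was not tested apart from these values.

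Among 11763 genes ranked by r over the 20 animals, those most like Aqp1 were Dpys, a pyrimidine-degrading enzyme (r = 0.979), Resp18 (0.979) and Xpnpep2, a membrane aminopeptidase (0.979). Aqp7 was most like Tmem174 (0.978), Agxt2, an aminotransferase (0.978), and Abcg2, an efflux transporter that carries urate (0.975). Aqp11 was most like Pepd, a dipeptidase (0.985), Dao, the D-amino acid oxidase (0.983), and Cryl1 (0.979). On the collecting duct side, Aqp2 was most like Dtnb, a dystrobrevin (0.942), Aqp3 (0.938) and the homeobox gene Hoxd9 (0.934). Aqp3 was most like Aqp2, then Dtnb (0.867) and Hoxd9 (0.858). Aqp4 was most like St14, a membrane serine protease (0.931), Tmc4 (0.897) and Galnt18 (0.890), and Aqp6 was most like Slc4a1, the chloride-bicarbonate exchanger of acid-secreting cells (0.862), Cyfip2 (0.851) and Rilp (0.830). These are the top 3 of a ranking and carry no test.

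The aquaporins varied between animals more than most genes. Over the 20 animals the SD of log2 CPM was 0.65 for Aqp1, at percentile 93.8 of all tested genes, and 0.51, 0.45, 0.43, 0.38, 0.37 and 0.30 for Aqp11, Aqp7, Aqp2, Aqp4, Aqp6 and Aqp3. The median gene had an SD of 0.24. Within the 6 untreated kidneys alone the SD of Aqp1 was 0.88, and its highest kidney was Ctrl 24 and its lowest Ctrl 12.

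The 4 animals that stand apart differed from the rest in some aquaporins and not in others. Aqp11 was at 34.7, 37.9, 50.8 and 58.9 TPM in them and at 10.95 to 33.1 TPM in the 20, so all 4 lay above. Aqp4 lay below the lowest of the 20, 6.58 TPM, in 3 of the 4, at 6.22, 5.81 and 5.52 TPM. Aqp1 and Aqp7 were above the range of the 20 in animals 36 and 37 of i.v. ABCB5+ only. Aqp2, Aqp3 and Aqp6 were inside the range of the 20 in all 4. The proximal phosphate transporter Slc34a1 was above that range in all 4, at 1946 to 2951 TPM against 357 to 1855 TPM. The 4 were chosen on the component over all genes, so these are descriptions and carry no test.

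Upstream of Aqp2, the receptor Avpr2 averaged 51.2 ± 16.3 TPM in Ctrl and 63.0 ± 12.9 TPM in CoCM kidneys, with 65.5 ± 17.7 TPM after i.p. and 51.1 ± 12.7 TPM after i.v. cells (SD, n = 6). Its log2 fold changes against Ctrl were 0.43 ± 0.20, 0.47 ± 0.20 and 0.09 ± 0.20 (SE), with adjusted p of 0.411, 0.978 and 0.878, so no test passed. They were 0.32, 0.26 and 0.07 without the 4 animals. Of the 37 genes of the route from vasopressin to Aqp2 (receptor, G protein, adenylyl cyclases, kinase subunits, trafficking, ubiquitin ligases, and Aqp2, Aqp3 and Aqp4 themselves), 0 were called in any comparison. Their median log2 fold change against Ctrl was -0.05 for CoCM, 0.01 for i.p. and 0.03 for i.v. cells, beside a median of about 0.01 or less over all genes. It was -0.14, 0.02 and -0.03 without the 4 animals. The genes with the smallest unadjusted p were Rhoa, a regulator of the actin barrier to vesicle fusion (log2 fold change -0.16 ± 0.06, adjusted p = 0.363), the kinase subunit Prkacb (-0.61 ± 0.25, adjusted p = 0.377) and the ubiquitin ligase Nedd4 (-0.30 ± 0.13, adjusted p = 0.383), all in CoCM. The mean level of the other 34 genes of the route had no positive relation to Aqp2 over the 20 animals (r = -0.361, rho = -0.242, p = 0.118 and 0.301, adjusted 0.256 and 0.481, and r = -0.178 without the 2 farthest animals). This mean does not give the relation of any single gene of the route. Avpr2 is also among the principal cell markers, whose mean had r = 0.906 with Aqp2. The relation of Avpr2 alone to Aqp2 was not tested.

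Transcription factors described around the Aqp2 gene were taken as a list of 12 genes. Of these, Gata3 and Elf5 are also among the principal cell markers. The list had r = 0.842 with Aqp6 (rho 0.788, p = 1e-05 and 8e-05, adjusted 0.00013 and 0.000728, r = 0.787 without the 2 farthest animals), 0.687 with Aqp4 and 0.568 with Aqp3 (adjusted p = 0.00399 and 0.0323). With Aqp2 itself, r was 0.526 (rho 0.583, p = 0.0169 and 0.00783, adjusted 0.0592 and 0.0298), which passed for rho and not for r. None of the 12 was called in any comparison, Nr1h4 having the smallest unadjusted p (log2 fold change 0.50 ± 0.20 in i.v. ABCB5+, adjusted p = 0.673).

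Markers of cell types were tested in the same comparisons, and 0 members of any list were called. The principal cell list had a median log2 fold change of 0.50 in i.p. ABCB5+ and 0.35 in CoCM against Ctrl (0.50 and 0.35 for Aqp2), with 3 of 8 genes (Fxyd4, Avpr2 and Kcnj1) higher at an unadjusted p under 0.05 in i.p. ABCB5+, where 1.26% of all genes were. Without the 4 animals these medians were 0.24 and 0.22 (0.36 and 0.23 for Aqp2). The shift was not particular to the principal cell list. The intercalated cell median was 0.52 in i.p. ABCB5+ and 0.43 in CoCM, with 8 of 8 genes positive in each. The thick ascending limb median was 0.69 and 0.39, with 4 of 4 genes positive in each. Without the 4 animals these were 0.17 and 0.18 for intercalated cells and 0.45 and 0.19 for the thick ascending limb. Differences between the lists were not tested. In i.v. ABCB5+ the median was 0.73 for the proximal tubule list and 1.89 for the straight segment list, and 0.07 and 0.16 without the 4 animals. These shifts went with those of Aqp1, Aqp7 and Aqp11, and their part in them was not tested. In CoCM, 3 of 5 endothelial genes (Tek, Cdh5 and Kdr) and 2 of 10 proximal tubule genes (Slc5a12 and Slc5a2) were lower at an unadjusted p under 0.05, as were 5.96% of all genes. The endothelial median was -0.44, or -0.42 without the 4 animals. The proximal tubule median in CoCM was 0.08, with 6 of 10 genes at a positive log2 fold change, or -0.19 without the 4 animals. The 4 red blood cell genes were lower in i.v. ABCB5+ at an unadjusted p under 0.05, as were 1.34% of all genes (median log2 fold change -2.16, or -2.21 without the 4 animals, adjusted p = 0.673 for Hba-a2). Aqp1 is also a red cell channel, and its r with the red cell list was -0.326 (rho -0.346, p = 0.16 and 0.138, adjusted 0.324 and 0.266, r = -0.361 without the 2 farthest animals). The red cell genes summed to 34007 TPM in Ctrl 1 and to 479 TPM in Ctrl 18, where Aqp1 stood at 259 and 405 TPM.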

How the data were processed

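RNA was extracted from whole left kidney and sequenced on a BGISEQ-500. The submitters' processing notes name Trim Galore 0.6.4, kallisto and the build rn6. The authors deposited estimated counts, not normalized, and TPM values (scaled to transcript length and library total) for the same genes in each of the 24 animals. How transcripts were summed to genes, and whether strand was used, is not given in the sources used here. DESeq2 and an annotation package built for the human genome are named in the methods of the study. Groups and animal numbers were taken from the sample labels. Symbols came from a RefSeq table of the assembly GRCr8, which matched 17179 of 17334 identifiers. In that assembly no annotated gene overlaps any of the 7 aquaporins.

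Estimated counts were rounded to whole numbers, filtered with filterByExpr by group and scaled by TMM. A model with a mean per group was fitted to all 24 animals and compared with the quasi-likelihood F-test of edgeR 4.0.16 (R 4.3.3). P-values were adjusted by Benjamini-Hochberg over all 12778 genes tested, with a threshold of 0.05. Beside it, two-sided exact permutation tests of log2 CPM were made over the 924 divisions of 12 animals. Log2 ratios of TPM needed no pseudocount. Correlations used 100000 permutations (scipy 1.17.1). The code was tested on simulated data. The limit set by a count of 0 (3 counts, at most 0.322 CPM here) covers counting error only. Whether animals of a group were processed separately or in batches is not given in the labels.

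The 7 aquaporins were always named, with the other family members by level, up to 3 genes of each list by the smallest p, the 3 genes most like each aquaporin, and Avpr2, Slc34a1, Atp6v1b1 and Spp1. The aquaporins, the lists and the 4 animals that stand apart were chosen with earlier results of these data known. Alternatives were median-ratio size factors, DESeq2 1.42.0, limma 3.58.1 on log2(TPM + 1) and log2(TPM + 0.1), other count filters, fits of only the groups compared, and fits without the 4 animals or without each animal in turn. No fit imputed a sample.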

Additional observations from a re-analysis of the deposited data

How the results depend on the processing

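No paired analysis was possible because no animal number occurs in more than 1 group. No aquaporin was called under any alternative, the smallest adjusted p being 0.526 as reported, 0.421 under the other alternatives and 0.449 when single animals were left out. Of the 224 aquaporin differences under other alternatives, 211 kept their direction and 13 reversed, 9 of them without the 4 animals that stand apart. Those were Aqp11 in CoCM (-0.1257) and i.p. ABCB5+ (-0.0234), Aqp3 (-0.1131), Aqp4 (0.0826), Aqp7 (-0.1002) and Aqp11 (-0.0392) in i.v. ABCB5+ against Ctrl, and Aqp1 (0.2166), Aqp7 (0.1914) and Aqp11 (0.0157) in i.p. against i.v. The log2 ratio of Aqp2 to Aqp3 in i.v. against Ctrl also changed sign there, from -0.04 to 0.0142. Aqp3 in i.v. ABCB5+, at 0.01 as reported, was -0.0002 with no count filter, -0.0104 with at least 10 counts in every sample, and -0.0646 and -0.0649 in limma with a pseudocount of 1 and of 0.1. Leaving out single animals changed the sign of 23 of 672 differences. The ranges were -0.1166 to 0.29 for Aqp11 and -0.0089 to 0.29 for Aqp4 in CoCM, -0.0284 to 0.34 for Aqp11 in i.p., and -0.14 to 0.0716 for Aqp2, -0.0515 to 0.10 for Aqp3 and -0.19 to 0.1347 for Aqp4 in i.v. ABCB5+.

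Over all genes, the 1 call of CoCM against Ctrl became 78 in DESeq2, and 0 in fits of only the groups compared, without the 4 animals, and in limma with either pseudocount. It ran from 0 to 31 when single animals were left out, 31 being without Ctrl 23. DESeq2 called 1 gene each in i.v. against Ctrl and i.p. against i.v., and 10 in the F-test, where edgeR called 0 (0 to 1 when single animals were left out, 1 without Ctrl 23). The cause was not tested. Of the 21 aquaporin correlations, 10 passed as reported, 18 after centring within groups and 6 without the 6 Ctrl animals, alternatives added after seeing the data. No aquaporin was limited by depth, the lowest value being 104 counts, for Aqp11.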

Other observations

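Of the other aquaporins in the annotation, 5 had a row. Aqp5, better known from secretory glands, was at 4.39 to 25.8 TPM (median 7.79, n = 24), and Mip, the lens aquaporin, at 12.9 to 26.3 TPM (median 18.6). Both passed the count filter, and in GRCr8 no annotated gene overlaps either of them. Mip therefore had a higher median TPM than Aqp4 (11.01). In estimated counts, which are not scaled to transcript length, Mip ran from 260 to 569 and Aqp4 from 215 to 910. These estimates were not whole numbers for either gene, and which sequences share their reads was not examined. Aqp8, Aqp9 and Aqp12a did not pass the filter. Their highest levels were 0.605, 0.560 and 1.28 TPM, and they had 0 counts in 9, 5 and 4 animals, which allows up to 3 counts in each.

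Aqp5 varied with the collecting duct channels over the 20 animals that did not stand apart. Its r was 0.760 with Aqp3 (rho 0.789, permutation p = 0.00012 and 6e-05, adjusted over 14 pairs 0.00168 and 0.00084), 0.735 with Aqp2 (rho 0.758, p = 0.00029 and 0.00015, adjusted 0.00203 and 0.00105) and 0.567 with Aqp6 (rho 0.603, p = 0.00909 and 0.0057, adjusted 0.0424 and 0.0199). Without the 2 animals farthest from the median these were 0.672, 0.630 and 0.540. With Aqp4 it passed for rho and not for r (r = 0.537, rho 0.660, p = 0.0145 and 0.00211, adjusted 0.0507 and 0.00985, and r = 0.633 without the 2 farthest animals). Mip passed with none of the 7, its highest r being 0.509 with Aqp4 (rho 0.525, p = 0.0221 and 0.0198, adjusted 0.0618 and 0.0523, and 0.497 without the 2 farthest animals).

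The 10 genes of glycerol handling (kinase, dehydrogenases, acyltransferases and lipases) varied with the proximal channels. Their mean had r = 0.842 with Aqp7 (rho 0.877, permutation p = 1e-05 for both, the smallest these permutations can give, adjusted over 91 relations 0.00013 and 0.000227), 0.773 with Aqp1 and 0.730 with Aqp11, and 0.809, 0.789 and 0.754 without the 2 farthest animals. With Aqp3, the glycerol channel of the principal cell, r was -0.312 (rho -0.298, p = 0.181 and 0.201, adjusted 0.343 and 0.352, and -0.326 without the 2 farthest animals). The 4 macrophage markers had r = -0.614 with Aqp6 (rho -0.582, p = 0.00404 and 0.00787, adjusted 0.016 and 0.0298, and -0.598 without the 2 farthest animals).

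Adipocyte markers summed to 16.5 to 237 TPM, the highest in CoCM 34, and skeletal muscle markers to 0.867 to 14.1 TPM, with no row for Mylpf. Only 2 genes of each list passed the count filter, and none was called.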
